A study of Mus musculus with 7 samples.

Results

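Elf3, Elf5, Ehf, Spdef, Gata3, Grhl1, Grhl2, Grhl3, Tfap2a and Tfap2c encode transcription factors of 4 families that are associated with epithelial and, in several cases, luminal mammary identity. They were taken by name from the annotated probe sets of mouse arrays, and all 10 were measured, among 17096 genes in all. Each gene was represented by the single-symbol probe set with the highest mean over the arrays, out of 17 probe sets for these genes and 28895 with a single gene symbol. The question asked of them was how their levels differed between adult luminal and adult basal cells. Of the 10 genes, 5 were higher in luminal cells (Elf3, Elf5, Ehf, Spdef and Grhl1), 1 was higher in basal cells (Tfap2c), and 4 did not pass the test (Gata3, Grhl2, Grhl3 and Tfap2a). The description of the set as luminal therefore held for the ETS genes and Grhl1 and went against Tfap2c, and the set is called the factor genes below. Elf3 only just reached a 2-fold difference, and the calls of Elf3, Grhl1 and Tfap2c were lost in some alternative fits given below.

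The 7 arrays came from sorted mouse mammary cells of 3 kinds. The embryonic cells (3 arrays) were CD49fHi Lgr5Hi cells of Lgr5-IRES-GFP female embryos at embryonic day 14, in sorts of 2000, 2000 and 813 cells. Their skin and mammary buds were digested together, and Lgr5 and CD49f, the integrin alpha 6 chain, were gates of the sort. The luminal cells (2 arrays) were YFP+ cells of K8CREERT2/RosaYFP mice, and the basal cells (2 arrays) were YFP+ cells of K5CREERT2/RosaYFP mice, both 8 weeks after tamoxifen. In these mice a tamoxifen-inducible Cre driven by the keratin 8 or the keratin 5 promoter switches on YFP, so the label marks cells in which that promoter was active at induction, and their progeny. The labels give neither the age of these mice nor whether replicates of a lineage were separate animals. The p-values thus measure the spread between these arrays, which may be technical. The adult arrays were marked as analysed again from earlier work, and their tissue label names embryonic gland, against their titles.

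Levels are log2 intensities of a probe set, and a difference of 1 is a 2-fold difference. They compare groups for a given probe set, not different genes with each other. The background level was 5.85 on this scale, a percentile (95) over genes known from other organs, and 46.1% to 48.2% of genes lay above it per array. The lineage markers followed the labels. All 8 basal markers were higher in basal cells (5 with an offset of 32 before log2), with summed intensities of 2021 and 2838 on the luminal arrays, against 14770 and 15935 on the basal arrays. Luminal markers summed to 13189 and 12763 on the luminal arrays and to 8043 and 8361 on the basal arrays, and 4 of 8 changed, all higher in luminal cells (1 without luminal replicate 1). The Cre driver genes were Krt8, at 0.40 ± 0.12 (luminal minus basal, SE, limma adjusted p = 0.0750), and Krt5, at -2.75 ± 0.18 (adjusted p = 0.00247). In bulk samples like these, fewer cells of a type and less RNA per cell cannot be told apart.

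The ETS factors bind DNA through a conserved ETS domain at sites with a GGAA core. Elf3, Elf5, Ehf and Spdef form an epithelium-restricted branch of that family, and Elf5 is required for the alveolar secretory cells that make milk in mice. GATA3 is a zinc finger factor needed in mice to form and keep luminal cells. Grainyhead-like factors, encoded by the Grhl genes, regulate cell junction and barrier genes in epithelia, and AP-2 factors, encoded by the Tfap2 genes, act in ectoderm and in mammary epithelium.

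Promoter windows, from 250 bases before to 50 bases after an annotated transcript start, were read from RefSeq on build GRCm38.p6 for 7 of the factor genes, 10 windows in all. The genes without an entry were Ehf, Grhl2 and Tfap2c. The windows were searched on both strands for motifs of the families themselves. The ETS motifs were CGGAAG and AGGAAG, the GATA motif was AGATAA, the Grainyhead motif was AACCNGTT and the AP-2 motif was GCCNNNGGC. No matches overlap in the windows shown, and capitals mark them. Of the luminal-higher genes, Spdef, Grhl1 and Elf5 are shown, so that windows with and without a match can be compared. Gata3 is shown as a gene whose luminal and basal levels overlapped.
Spdef promoter window, chr17:27728902-27729201, minus strand: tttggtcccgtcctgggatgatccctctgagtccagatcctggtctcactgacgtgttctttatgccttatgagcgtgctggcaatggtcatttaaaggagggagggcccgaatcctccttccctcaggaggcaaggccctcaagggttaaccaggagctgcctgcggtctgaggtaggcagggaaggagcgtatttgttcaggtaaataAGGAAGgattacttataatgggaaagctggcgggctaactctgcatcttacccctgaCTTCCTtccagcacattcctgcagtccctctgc
Grhl1 promoter window, chr12:24572037-24572336, plus strand: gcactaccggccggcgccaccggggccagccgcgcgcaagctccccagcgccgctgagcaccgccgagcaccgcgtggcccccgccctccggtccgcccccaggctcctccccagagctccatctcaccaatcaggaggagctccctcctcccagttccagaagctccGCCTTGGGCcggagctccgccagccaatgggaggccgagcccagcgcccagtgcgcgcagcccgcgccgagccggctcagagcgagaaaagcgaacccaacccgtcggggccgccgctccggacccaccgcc
Elf5 promoter window, chr2:103411848-103412147, plus strand: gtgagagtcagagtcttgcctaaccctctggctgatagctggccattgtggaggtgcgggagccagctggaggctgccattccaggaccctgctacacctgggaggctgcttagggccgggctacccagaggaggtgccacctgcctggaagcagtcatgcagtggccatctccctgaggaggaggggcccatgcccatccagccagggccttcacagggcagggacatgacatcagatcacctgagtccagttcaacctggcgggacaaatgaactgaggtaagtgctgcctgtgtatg
Gata3 promoter window, chr2:9878551-9878850, minus strand: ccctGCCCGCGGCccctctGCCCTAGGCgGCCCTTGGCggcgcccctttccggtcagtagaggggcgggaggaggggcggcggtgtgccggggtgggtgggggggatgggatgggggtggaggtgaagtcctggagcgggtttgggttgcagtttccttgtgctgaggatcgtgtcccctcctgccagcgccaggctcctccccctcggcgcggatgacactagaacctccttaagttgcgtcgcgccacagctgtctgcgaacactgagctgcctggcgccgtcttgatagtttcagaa
The Spdef window holds AGGAAG 40 bases before the start and its reverse complement from the base at 18 after it. The Grhl1 window holds a GCCNNNGGC match that begins 82 bases before the start, and the Gata3 window holds 3, which begin 246, 231 and 221 bases before it. No motif was found in the Elf5 window shown, in the window of its other start, or in the Elf3 and Grhl3 windows. AGGAAG was present in 4 of the 10 windows, those of Spdef, the other Grhl1 start and both Tfap2a starts, against 35.4% of all 32851 windows. GCCNNNGGC was present in 2 of the 10, against 16.6% of all windows. None of the 10 held the motif CGGAAG (16.9% of all windows), the motif AGATAA (11.2%) or the motif AACCNGTT (2.1%). A match describes letters in the window and does not show binding.

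Elf5, the alveolar factor, had log2 intensities of 6.50 and 6.82 on the luminal arrays, against 4.92 and 5.05 on the basal arrays. Both luminal arrays lay above the background level and both basal arrays below it, and the groups did not overlap. The difference was 1.68 ± 0.15 (luminal minus basal, SE, n = 2 and 2 arrays, limma adjusted p = 0.00418). Because basal Elf5 was not above background, its level was at least 1.75-fold higher in luminal cells when the background level stands in for the basal value. The other Elf5 probe set had 5.41 and 5.96 on the luminal arrays and 4.16 and 4.25 on the basal arrays, a difference of 1.48 in the same direction, with a luminal mean under the background level.

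Ehf, an epithelial ETS factor whose gene lies near Elf5 on chromosome 2 with 2 annotated genes between them, had 7.27 and 7.45 on the luminal arrays, against 5.54 and 5.99 on the basal arrays. Its difference was 1.59 ± 0.18 (SE, limma adjusted p = 0.00693). The groups did not overlap, although only 1 basal array was above background. Of its 4 probe sets, 3 were higher on both luminal arrays, with differences of 1.59, 2.05 and 2.26. The sets at 2.05 and 2.26 were below background on both basal arrays, so the sizes are not exact. Against the background level the third was at least 1.59-fold higher in luminal cells, and the luminal mean of the second did not exceed that level. The fourth, an x_at set, which by its design can cross-hybridise, lay below background on all arrays, at 3.50 on both luminal arrays and at 3.54 and 3.56 on the basal arrays, and so gives only a bound in both lineages.

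Spdef, known for its role in goblet and other secretory cells, had 7.27 and 7.86 on the luminal arrays, against 5.75 and 5.93 on the basal arrays. The lowest luminal array was thus well above the highest basal array, while the luminal arrays differed from each other by 0.59. The difference between lineages was 1.73 ± 0.22 (SE, limma adjusted p = 0.00821). The basal arrays sat at the background level, 1 of them above it. Spdef was measured by a single probe set.

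Elf3, an ETS factor widely expressed in simple epithelia, had 8.34 and 8.23 on the luminal arrays, against 7.06 and 7.51 on the basal arrays. All 4 arrays were above background, so basal cells had a measurable Elf3 signal. The difference of 1.00 ± 0.18 (SE, limma adjusted p = 0.0201), 2.004-fold, only just met the 2-fold minimum. Elf3 was no longer called without luminal replicate 1 (0.95, adjusted p = 0.125), without luminal replicate 2 (1.06, adjusted p = 0.0871) or without basal replicate 1 (0.77, adjusted p = 0.0252). Under quantile normalization it was 0.93 (adjusted p = 0.0164) and was not called.

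**Figure D1:**
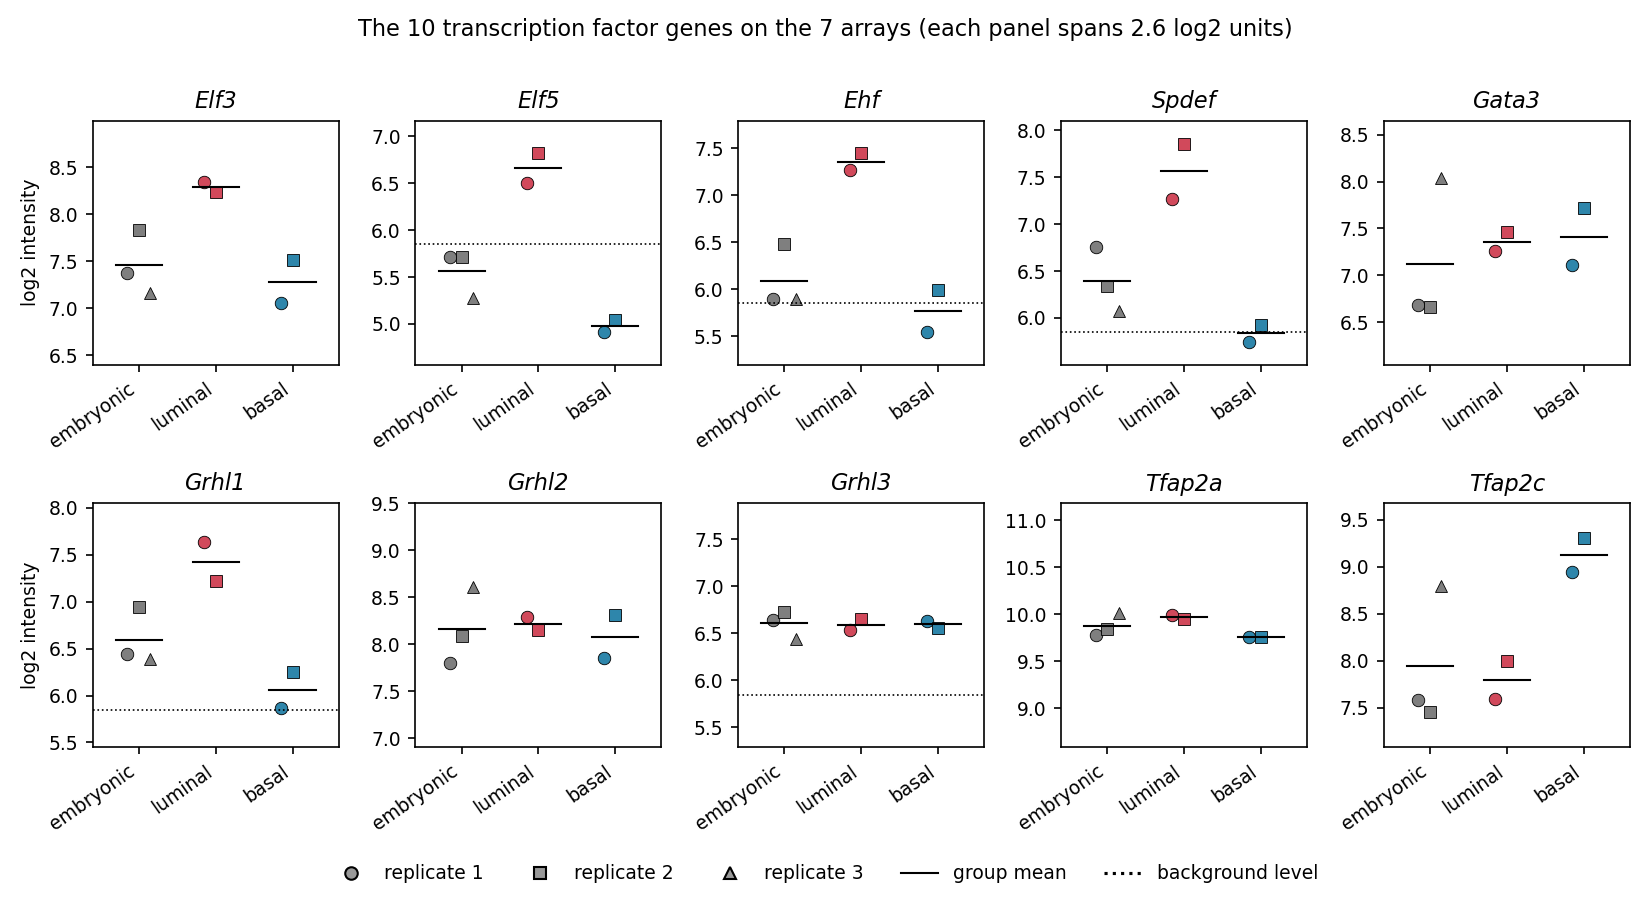
Log2 intensity (vertical axis) of each factor gene on the embryonic, luminal and basal arrays. Points are arrays, shaped by replicate number, solid lines are group means and the dotted line is the background level of 5.85 where a panel reaches it. Luminal points of Elf3, Elf5, Ehf, Spdef and Grhl1 lie above all basal points, those of Tfap2c lie below, and those of Gata3, Grhl2 and Grhl3 overlap.

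Of the Grainyhead-like genes, Grhl1 passed the test, and Grhl2 and Grhl3 did not. Grhl1 had 7.63 and 7.22 on the luminal arrays, against 5.87 and 6.25 on the basal arrays, a difference of 1.37 ± 0.20 (SE, limma adjusted p = 0.0125). The groups did not overlap, and Grhl1 was not called without luminal replicate 1 (1.16, adjusted p = 0.0748). Grhl2, which regulates Cdh1 and other junction genes in mice, had 8.29 and 8.15 on the luminal arrays and 7.85 and 8.31 on the basal arrays. These values overlap. The difference was 0.14 ± 0.18 (limma adjusted p = 0.690), with a 95% interval from -0.32 to 0.60. The other Grhl2 probe set had a difference of -0.10 and overlapped as well. Grhl3, known from neural tube and epidermal closure in mice, had 6.53 and 6.65 on the luminal arrays and 6.64 and 6.56 on the basal arrays. Its difference was -0.00 ± 0.12 (limma adjusted p = 0.992), with a 95% interval from -0.31 to 0.30. For Grhl2 and Grhl3 the intervals leave out a 2-fold difference in either direction, within the spread of these arrays.

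Gata3 had 7.26 and 7.46 on the luminal arrays, against 7.11 and 7.72 on the basal arrays. All 4 values were above background and overlapped, and the basal arrays differed from each other by 0.61. The difference was -0.05 ± 0.22 (SE, limma adjusted p = 0.920), with a 95% interval from -0.60 to 0.50. Its sign turned with the array left out, from -0.36 to 0.25, and no such fit called it. Gata3 was measured by a single probe set, so the level rests on that design alone.

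Of the AP-2 genes, Tfap2c passed the test and Tfap2a did not. Tfap2c, which encodes AP-2 gamma, had 7.60 and 8.00 on the luminal arrays, against 8.95 and 9.30 on the basal arrays. All 4 arrays were well above background, so luminal cells also had Tfap2c signal, and the groups did not overlap. The difference was -1.33 ± 0.20 (luminal minus basal, SE, limma adjusted p = 0.0125), 2.51-fold higher in basal cells. The other Tfap2c probe set had 6.20 and 5.96 on the luminal arrays and 7.50 and 7.83 on the basal arrays, a difference of -1.58. Tfap2c was not called without luminal replicate 1 (-1.13, adjusted p = 0.0748), nor when the embryonic arrays shared the fit (-1.33, adjusted p = 0.102). Its adjusted p ran from 0.00480 to 0.102 over the 9 alternatives that kept all adult arrays. Tfap2a, which encodes AP-2 alpha, had 9.998 and 9.96 on the luminal arrays and 9.76 and 9.76 on the basal arrays. Its groups did not overlap, but the test was not passed, at 0.22 ± 0.12 (limma adjusted p = 0.279) with a 95% interval from -0.07 to 0.51. Its other probe set had 8.10 and 7.99 on the luminal arrays and 7.72 and 7.69 on the basal arrays.

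**Figure D2:**
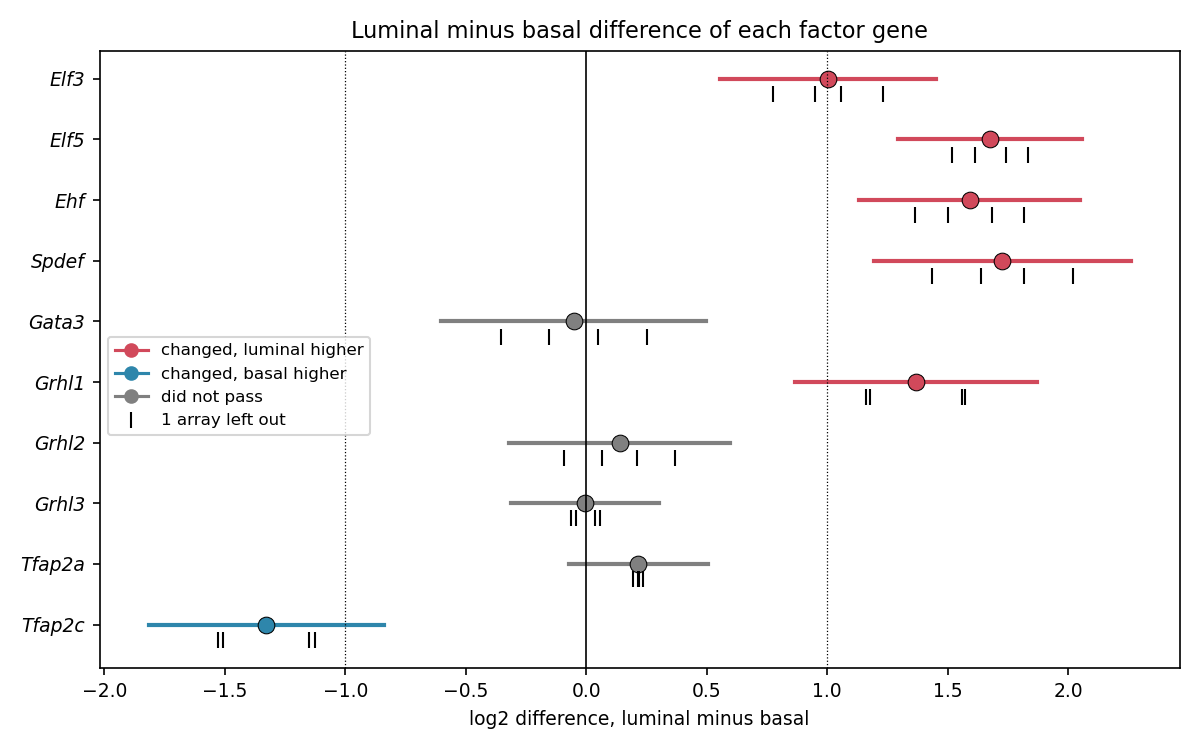
Log2 difference, luminal minus basal (horizontal axis), of each factor gene, with its 95% interval from limma. Small ticks under each point give the difference with 1 array left out, and dotted lines mark a 2-fold difference. Spdef (1.73), Elf5 (1.68), Ehf (1.59), Grhl1 (1.37) and Elf3 (1.00) lie to the right, Tfap2c (-1.33) to the left and the other 4 near 0.

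Set against the whole table, 5 of 10 factor genes were called higher in luminal cells where 3.57% of all genes were, and 1 of 10 higher in basal cells where 3.24% were. In either direction 6.81% of all genes and 6 of 10 factor genes were called. The calls of Elf3, Grhl1 and Tfap2c were lost without luminal replicate 1, where their differences were 0.95, 1.16 and -1.13. With no fold minimum, 16.8% of all genes and the same 6 factor genes were called, and an unadjusted p under 0.05 was reached by 31.6% and by those 6. A gene counted as changed when its Benjamini-Hochberg adjusted p in limma, over all 17096 genes, was under 0.05 and the difference was at least 2-fold. Luminal arrays lay wholly above basal arrays for 6 of 10 factor genes and 33.9% of all genes, and wholly below for 1 of 10 and 25.3%. All 10 factor genes had a lineage mean above background. Of the 8711 genes for which that held, 555 were called higher in luminal cells and 520 higher in basal cells. Among those 8711, luminal arrays lay wholly above basal arrays for 4063 and wholly below for 2183. The median difference was 0.61 over the factor genes, 0.02 over all genes and 0.16 over those 8711 genes. The genes had been chosen with earlier results of these arrays known, so these counts are a description.

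**Figure D3:**
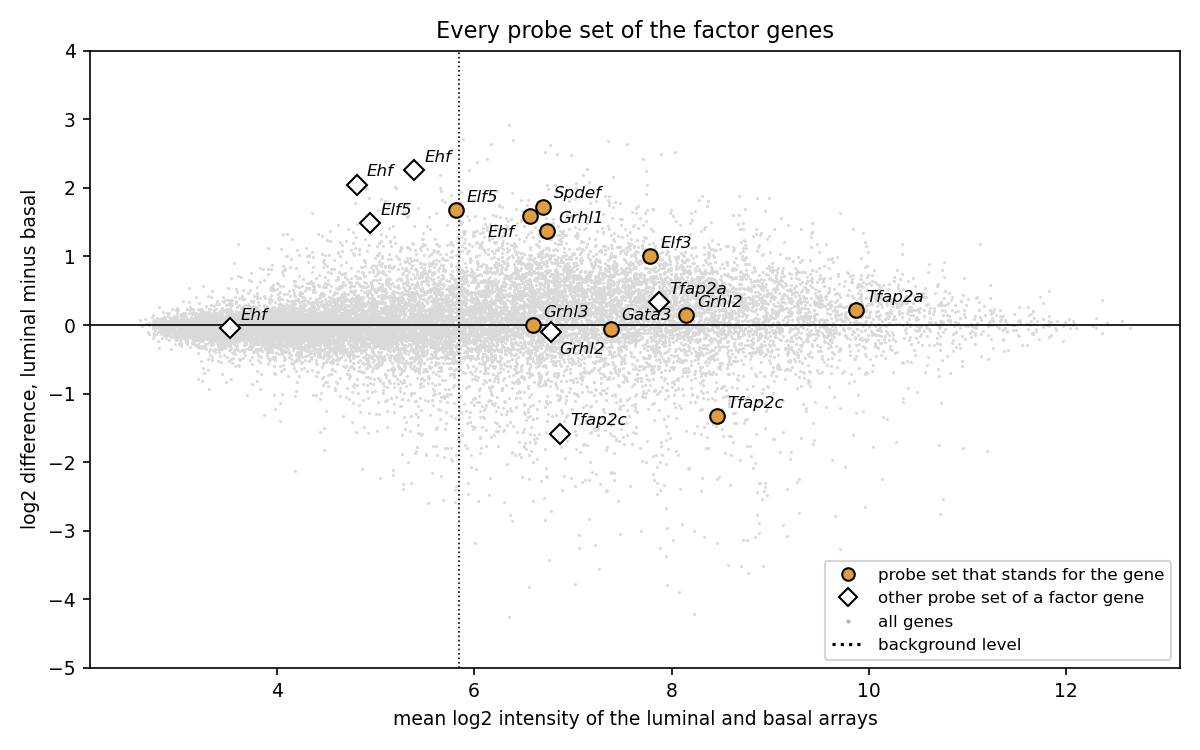
Log2 difference, luminal minus basal (vertical axis), against the mean log2 intensity of the luminal and basal arrays (horizontal axis) for the 17 probe sets of the factor genes. Filled circles stand for their gene, open diamonds are the other probe sets, grey points are all genes and the dotted line is the background level. Probe sets of a gene lie on the same side of 0 for Elf5, Tfap2a and Tfap2c, and for 3 of the 4 Ehf sets.

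Replicates of the same lineage also differed in these genes. Replicate 2 exceeded replicate 1 in 8 of 10 factor genes on the basal arrays, by a median of 0.37, against 0.10 over genes above background. That median is positive, so most genes above background were higher in basal replicate 2 as well. On the luminal arrays replicate 2 was higher in 6 of 10 factor genes, by a median of 0.15, against -0.06 over genes above background. In basal replicate 2 the largest excess was that of Gata3 (0.61), followed by Grhl2 (0.46), Elf3 (0.46) and Ehf (0.45). The luminal markers differed little between the basal arrays, at 8043 and 8361. Endothelial markers summed to 845 and 1425 on them and fibroblast markers to 5717 and 7410. Their part in the results was not tested.

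Fibroblast markers summed to 2503 and 4238 on the luminal arrays, against 5717 and 7410 on the basal arrays, with Col1a2 and Pdgfra below background on all 4. Of the 8, 1 passed the test, Fbln1 (-2.25 ± 0.28, adjusted p = 0.00813), which was higher in basal cells, and 4 passed without luminal replicate 2. Endothelial markers summed to 316 and 605 on the luminal arrays, against 845 and 1425 on the basal arrays, with Tek and Cldn5 below background on all 4 and 0 of 8 called by limma (7 at an unadjusted p under 0.05, all lower in luminal cells). Without luminal replicate 2 the count was 2, and without basal replicate 1 it was 6. It was 5 when only genes above background were tested or with the replicate number as a block, and 4 with limma-trend. Of 7 leukocyte markers 0 were called (2 at an unadjusted p under 0.05, and 1 called without luminal replicate 2), and Ptprc, Cd3e, Csf1r and Itgam were below background on all 4. Of 8 genes of differentiated epidermis, where Grhl and AP-2 factors are also expressed, 6 were below background on all 4 arrays, and Sbsn was higher in luminal cells (1.06 ± 0.17, adjusted p = 0.0146). It was not called without luminal replicate 1, luminal replicate 2 or basal replicate 1, nor with quantile normalization, an offset of 32 before log2 or the mean of all probe sets. The part of these cell types in the Tfap2c difference was not tested.

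The wider families were read from lists of the other members of each. Of 20 measured other ETS genes, limma called 0 (4 at an unadjusted p under 0.05, all lower in luminal cells), and 13 of them lay above background. Their median was -0.17, with 16 of 20 on the basal side, Ets1 at -0.30 and Ets2 at -0.04. Fli1 (-1.36, adjusted p = 0.0623) and Erg (-0.91, adjusted p = 0.0334), ETS factors of endothelial cells picked out after their values were seen, had the lowest differences and were not called, Erg because it missed the 2-fold minimum. Luminal Fli1 was below background on both arrays. With the background level in its place, the basal mean was 1.55-fold higher, a bound that carries no test. Of 7 other GATA genes and cofactors, limma called 0 (3 at an unadjusted p under 0.05), and 2 lay above background. Gata1 (0.03) and Gata2 (-0.40) were below it on all 4 adult arrays, so those differences are between values at the floor. Trps1, a GATA-type repressor also picked out after its value was seen, had a difference of 0.94 with an adjusted p of 0.0251 and missed the 2-fold minimum. Of 6 other CP2 and AP-2 genes, limma called 0 (1 at an unadjusted p under 0.05). Of those 6, 2 lay above background. Tfcp2l1 had 5.95 and 4.93 on the luminal arrays and 4.03 and 4.29 on the basal arrays (1.28 ± 0.33, adjusted p = 0.0529), and Tfcp2 had a difference of 0.52. Tfcp2 was below background on all 4 adult arrays. Tfcp2l1 was below it on both basal arrays and had a luminal mean of 5.44, also under it. The size of these differences is thus not exact. With 1 array left out, 2 other ETS genes were called without luminal replicate 2 and 1 without basal replicate 1. The GATA list had 1 call without luminal replicate 1, and the CP2 and AP-2 list had 1 without luminal replicate 2 or basal replicate 2. Of the alternatives with a fold minimum that kept all 4 adult arrays, 4 called 1 other ETS gene, 1 called 1 gene of the GATA list and 4 called 1 gene of the CP2 and AP-2 list.

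Of 15 measured partner factors of luminal cells, 4 were called, all higher in luminal cells. They were Cited1 (2.24 ± 0.13), Foxa1, the pioneer factor that opens chromatin for the estrogen receptor (2.71 ± 0.18), Pgr, the progesterone receptor gene (1.88 ± 0.18), and Esr1, the estrogen receptor alpha gene (1.40 ± 0.19). Their limma adjusted p ran from 0.00239 to 0.00976. Basal Foxa1 was below background on both arrays, so its level was at least 2.63-fold higher in luminal cells. Stat5a, the prolactin-responsive factor that acts with Elf5 on milk genes, had a difference of 0.77 (adjusted p = 0.0197) and Stat5b one of 0.90 (adjusted p = 0.0638), and neither was called, Stat5a because it missed the 2-fold minimum. At an unadjusted p under 0.05 in limma, 7 of the 15 were higher in luminal cells and 2 higher in basal cells. Luminal arrays lay wholly above basal arrays for 7 of them and wholly below for 4, against 33.9% and 25.3% of all genes. The median of the list was 0.08, close to that of all genes.

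In the epithelial junction programme, 11 of 18 measured genes rose in luminal cells, with a list median of 1.09. Marveld3, a tight junction gene (1.93 ± 0.13), Krt7, a keratin of simple epithelia (1.64 ± 0.17), Marveld2, the tricellulin gene (1.70 ± 0.19), and Cldn7, a claudin gene (1.18 ± 0.13), had the lowest adjusted p, from 0.00247 to 0.00655. Marveld3 was below background on both basal arrays and was at least 2.83-fold higher in luminal cells. Cdh1, the E-cadherin gene (0.58), and Epcam (0.39) did not pass. Of the 18 genes, 17 had luminal arrays wholly above basal arrays, as had 33.9% of all genes and 4063 of 8711 above background. The count called was 4 without luminal replicate 1. Grhl2 itself, the factor the list was drawn up around, had a difference of 0.14.

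Of the alveolar progenitor and milk genes, 6 of 14 measured rose in luminal cells, with a list median of 0.85. The count was 2 with an offset of 32 before log2. Cdo1 (2.42 ± 0.15), Aldh1a3, an aldehyde dehydrogenase gene of luminal progenitors (1.81 ± 0.25), Kit, a receptor gene of the same cells (1.40 ± 0.13), and Rspo1, the R-spondin 1 gene (1.20 ± 0.12), changed, with adjusted p from 0.00247 to 0.0104. Kit and Rspo1 lay below background in both lineages, at mean levels of 5.42 and 5.37 in luminal cells and 4.02 and 4.17 in basal cells, so the size of their differences is not exact. The monocyte co-receptor gene Cd14 (0.79) and the casein gene Csn2 (0.91) did not pass. In the hormone receptor positive list, 6 of 12 measured genes rose in luminal cells, as did 3.57% of all genes, with a list median of 1.01. That count was 4 with an offset of 32 before log2, and 5 with the mean of all probe sets or with all 7 arrays in the fit. Prom1 (1.86 ± 0.18), the progesterone target Wnt4 (1.73 ± 0.17), the estrogen target Greb1 (1.44 ± 0.15) and Mboat1 (2.28 ± 0.24) had adjusted p from 0.00441 to 0.00571. Greb1 was below background on both basal arrays and was at least 1.32-fold higher in luminal cells. Tnfsf11, the RANK ligand gene (0.18), did not pass, and S100a6 (0.95, adjusted p = 0.00834) missed the 2-fold minimum.

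Of 11 secretory genes drawn up around Spdef, 2 were higher in luminal cells, the mucin gene Muc1 (1.14 ± 0.23, adjusted p = 0.0255) and Clca1 (1.64 ± 0.26, adjusted p = 0.0152). Clca1 was below background in both lineages (5.18 and 3.54), and 5 of the 11 genes were above it in a lineage. Agr2, the disulfide isomerase gene of goblet cells (0.04), and Tff1, a trefoil factor gene (0.02), did not pass, and the median of the list was 0.04. The count was 1 without luminal replicate 1, luminal replicate 2 or basal replicate 1, and 0 with the offset. It was 1 with the mean of all probe sets, with genes above background alone and with all 7 arrays in the fit. Of 10 genes of epithelial to mesenchymal transition and basal identity, 3 were higher in basal cells. These were Trp63, the p63 gene (-2.77 ± 0.18), Snai2, which encodes Slug and is repressed by Elf5 in mice (-1.89 ± 0.13), and Vim, the vimentin gene (-2.06 ± 0.35), with adjusted p from 0.00247 to 0.0169. Luminal Snai2 was below background on both arrays, so its level was at least 2.10-fold higher in basal cells. Snai1 (-0.69) and Zeb1 (-0.32) did not pass. The median of that list was -0.89, and 5 of its genes were called without basal replicate 1, with genes above background alone or with the replicate block. Fibroblast and endothelial markers, of cells that express Vim, had higher sums on the basal arrays as given above, and their part in the Vim difference was not tested.

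**Figure D4:**
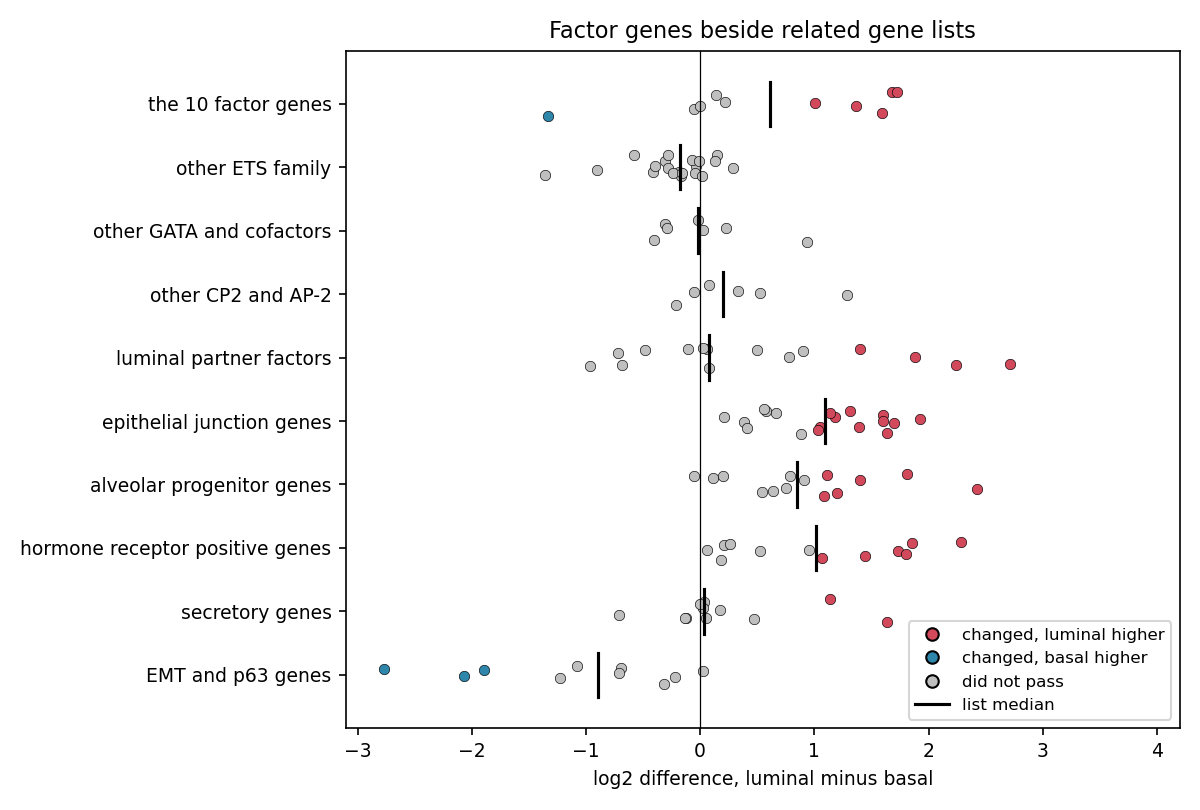
Log2 difference, luminal minus basal (horizontal axis), of the 10 factor genes and of each gene in the related lists (rows). Coloured points changed, grey points did not pass, and black bars are list medians. The medians are 0.61 for the factor genes, -0.17 for other ETS genes, 1.09 for junction genes and -0.89 for EMT and p63 genes.

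The search for similar profiles took the 8151 genes above background, less those with predicted or clone names. For each changed factor gene, the genes given had the smallest distance between log2 values centred over the 4 adult arrays. For Ehf they were Krt7 (distance 0.09), Wfdc2 (0.10) and Arg2 (0.10), and for Elf5 they were Plb1 (0.13), Hp (0.16) and Wnt4 (0.19). For Spdef they were Elapor1 (0.12), Slc5a5 (0.18) and Phyh (0.21), and for Grhl1 they were Il1rn (0.07), Ppm1h (0.11) and Zbtb42 (0.12). Elf3 had Ltbp1 (0.04), Mvb12a (0.04) and Fh1 (0.05) nearest to it, and Tfap2c had Lrp4 (0.02), Rasa3 (0.06) and Palmd (0.15). No shared role is read from these distances over 4 arrays.

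The embryonic columns were on a scale that limits what they can show. Over 45033 probe sets, embryonic minus adult means had an SD of 0.09, against 0.49 for luminal minus basal, and 37.6% of values were identical between embryonic replicates 1 and 2. Levels in embryonic columns therefore describe the table. For Elf3 they were 7.38, 7.84 and 7.16, for Elf5 5.71, 5.71 and 5.28, for Ehf 5.89, 6.48 and 5.89, for Spdef 6.76, 6.34 and 6.08 and for Grhl1 6.44, 6.94 and 6.39. In all 5 genes the embryonic columns lay below both luminal arrays and had a mean nearer to the basal mean. The same held for 90.3% of the 611 genes called higher in luminal cells, so it is no feature of these 5. Against the basal arrays they overlapped for Elf3 and Ehf and lay above for Elf5, Spdef and Grhl1, none of which passed the test (limma adjusted p = 0.350, 0.566 and 0.549). Elf5 was below background in all 3 embryonic columns. Over all genes the embryonic mean lay between the adult means in 89.3%, so no order of the 3 groups is read from it.

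Gata3 was at 6.68, 6.66 and 8.04 in the embryonic columns and Tfap2c at 7.58, 7.45 and 8.79. In both genes replicate 3, the sort of 813 cells, was the high one. It was also the highest for Grhl2 and Tfap2a, and the lowest for Elf3, Elf5, Ehf, Spdef, Grhl1 and Grhl3. Embryonic Tfap2c overlapped the luminal arrays and lay below both basal arrays. Grhl2 (7.80, 8.09 and 8.61) and Grhl3 (6.65, 6.73 and 6.45) overlapped the arrays of both adult lineages. Tfap2a (9.78, 9.84 and 10.01) overlapped the luminal arrays and lay just above both basal arrays. No factor gene was called in embryonic minus luminal, where limma called 0.0234% of all genes, nor in embryonic minus basal, where it called 0.0702%. At an unadjusted p under 0.05 these fits held 5 and 2 of the factor genes, with 2060 (12%) and 1581 (9.25%) of all genes. The comparison of Tfap2c with basal was not called with embryonic replicate 3 and was called without it. The difference was -1.19 ± 0.41 (limma adjusted p = 0.454) with it and -1.61 ± 0.18 (adjusted p = 0.0367) without it. Replicates 1 and 2, left in that fit, had 37.6% of values identical, so its SE may not be that of independent arrays. The comparisons with luminal and with basal share the embryonic arrays.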

How the data were processed

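Per the labels' protocols, RNA of the sorted embryonic cells was amplified as cDNA and labelled for Affymetrix arrays. The authors deposited an intensity per probe set on a linear scale. The tools listed in the submitters' processing notes are RMA and affy. Versions, settings, the adult protocol, and whether embryonic and adult arrays were summarised together are not given in the sources used here.

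Of 45141 rows, 4 without values and 104 controls were left out. The platform annotation gave a single symbol for 28895 probe sets, several for 551 and none for 15587. Entrez identifiers matched 28686 to RefSeq, with 0 symbols updated. Log2 of the intensity was fitted with limma 3.58.1 in R 4.3.3 (lmFit, eBayes) on the 4 adult arrays with 2 group means and no filter on low values. The fit had 2 residual and 3.73 prior degrees of freedom. Embryonic contrasts used 3 group means over all 7 arrays. The background level came from 109 probe sets of 81 genes, 1 of which (Fgb) was called. The fit was tested on simulated data. The number of arrays limits the precision.

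The factor genes and lists were chosen with earlier results of these data known. Named genes were all 10 factor genes, the drivers Krt5 and Krt8, and from each list up to 4 changed genes per direction by adjusted p and up to 2 that did not pass, in list order. Lgr5 (luminal minus basal -3.90 ± 0.18, SE) and Itga6 (-0.45 ± 0.12), also set by that rule, are gate genes of the embryonic sort. Marker lists are given by counts. Alternatives covered probe set choice, background filter, quantile normalization, an offset of 32, limma-trend, all 7 arrays, a replicate block, no fold minimum and each array left out. Plots used Python 3.11.15 and matplotlib 3.10.9.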

Additional observations from a re-analysis of the deposited data

How the results depend on the processing

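Elf5, Ehf and Spdef kept their direction and were called in every alternative run, with each adult array left out included. Differences ran from 1.07 to 1.68, 1.18 to 2.26 and 1.31 to 1.73 over the 9 other alternatives. Elf3 fell under the 2-fold minimum with quantile normalization (0.93) and with an offset of 32 before log2 (0.87, adjusted p = 0.0535), and ran from 0.77 to 1.23 with an array left out. Tfap2c was not called with all 7 arrays in the fit (-1.33, adjusted p = 0.102), and ran from -1.53 to -1.13 with an array left out. Grhl1 ran from 1.16 to 1.57 there. Without 1 array, Gata3 ran from -0.36 to 0.25, Grhl2 from -0.093 to 0.37 and Grhl3 from -0.064 to 0.056, none of them called. The factor genes called numbered 5 or 6 in the other alternatives and 3 to 6 with an array left out, where 3 was the count without luminal replicate 1. Over all genes, 1165 were called, 505 with the offset, 2879 with no fold minimum and 519 to 1443 with an array left out (519 without luminal replicate 1). A fit without 1 array leaves 1 in its group, assumed to vary like the other.

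Replicate numbers are shared between groups, but differences between replicates 2 and 1 had a correlation of 0.04 over probe sets between luminal and basal arrays, so they were not taken as pairs. With the replicate number as a block, 1208 genes and the same 6 factor genes were called in luminal minus basal. In the embryonic contrasts the block gave 1 call against luminal (Ehf) and 1 against basal (Tfap2c), in place of 0. Only the embryonic group had a replicate 3, so the block fitted that array exactly and left it no weight in these differences. Embryonic minus basal Tfap2c was thus -1.61 both with the block and without embryonic replicate 3. Those fits are not separate results. Leaving out an array gave 0 to 1 call against basal and 0 against luminal. What else shifted the calls was not tested.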
